A study of Homo sapiens with 18 samples.

Results

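The MYC, MAX and MXD network is a set of transcription factors that pair through a shared helix-loop-helix zipper and bind the same short DNA sites. Its members here were MYC, MAX, MXD1, MXD3, MXD4, MXI1, MNT, MGA, MLX and MLXIP, chosen by name and found through their NCBI Gene IDs. All 10 were present among the 21662 gene IDs of the series, and all 10 passed the filter on low counts that left 14396 genes for testing.

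RNA was sequenced from SNT-8, SNK-10 and SNT-16, established human cell lines of NK/T cell lymphoma whose genotype is given as WT. Each line received icaritin, a prenylated plant flavonoid, or its solvent DMSO for 12 h, which makes 6 groups of 3 libraries. The title of the series places the experiment in a study of the kinase PLK1, the DNA damage response and a chemotherapy regimen. The dose of icaritin is not given in the sources used here, and nothing states whether the 3 libraries of a group were separate cultures, so a p-value here speaks of the variation among libraries, which may be technical.

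MYC pairs with MAX to activate genes of growth, ribosome production and metabolism. MXD1, MXD3, MXD4, MXI1 and MNT compete for MAX and bring in the SIN3 corepressor, so that the same sites are repressed, and MGA joins MAX in a repressive complex of its own. MLX pairs with MLXIP, also called MondoA, in an arm of the network that responds to glucose, and it can pair with some of the MXD proteins as well. In lymphocytes MYC drives the growth that follows activation, and MXD proteins are known to rise as many cell types leave the cell cycle.

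In icaritin libraries of all 3 lines, MYC fell to between 0.413 and 0.425 of its level in DMSO libraries, while the repressors MXD1 and MXI1 rose. MXD1 was at least 3.05-fold higher in each line, and MXI1 was 1.88-fold to 2.27-fold higher. MXD3, MGA and MLX fell by smaller amounts, and MAX, MNT and MLXIP passed the test in no line with all libraries in the fit. MXD4 rose in SNT-8 and did not pass the test in SNK-10 or SNT-16, and the test of a difference between the lines in its response was not passed either.

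Sequences upstream of the members that rose, and of those holding a MAX-type site, are shown so that the regions next to their transcription starts can be seen beside the expression values. They come from RefSeq on GRCh38.p14, where 9 of the 10 members, all but MYC, matched, with 14 start sites. MXD1 showed the greatest rise, and the 250 bases before its start, chr2:69914859-69915108 on the plus strand, read as follows.
MXD1: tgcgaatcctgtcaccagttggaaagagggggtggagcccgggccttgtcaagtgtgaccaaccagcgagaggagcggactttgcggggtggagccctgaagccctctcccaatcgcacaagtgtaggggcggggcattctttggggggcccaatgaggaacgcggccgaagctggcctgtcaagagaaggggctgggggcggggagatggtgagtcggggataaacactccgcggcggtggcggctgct

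Of this MXD1 stretch 64.4% was G or C. Windows of 250 bases before to 50 after each start were searched on both strands for the E-box CACGTG, the site that MAX dimers bind, for the FOXO core GTAAACA and for the composite site TGATGCAA of ATF4 with C/EBP. None of the 3 motifs contains another, and they were chosen with the expression results known. The E-box was present in 7.26% of 35116 RefSeq promoters, the FOXO core in 3.42% and the composite in 0.866%. Counted by gene, with a match at any start, the E-box was present in 2396 of 27305 genes. The FOXO core was present in 1145 of them and the composite in 295. A gene with several starts has more chances of a match.

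The E-box matched in 3 members, shown with 10 bases on each side and the motif in capitals, each in the direction of its gene. The MXD4 match (chr4:2262332-2262357, minus strand) began 238 bases before the start, the MNT match (chr17:2401238-2401263, minus strand) 193 bases before it, and the MLX match (chr17:42567040-42567065, plus strand) 50 bases before it.
MXD4: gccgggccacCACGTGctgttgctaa
MNT: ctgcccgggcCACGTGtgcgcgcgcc
MLX: gggcgcgggtCACGTGggcacgccac

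The FOXO core matched at 2 of the separate starts of MXI1, a gene that human FOXO3 is known to induce. A further MXI1 start, upstream of both, held no match. One match lay on the opposite strand and began 151 bases before its start (chr10:110210070-110210096), and the other began 2 bases before its start (chr10:110225984-110226010). Both are written along the plus strand, on which MXI1 lies, and are labelled by their order among the 2 matched starts.
MXI1, upstream start: gccacctcgtTGTTTACcccgtgccgg
MXI1, downstream start: gcggggagagGTAAACAaaccacgcgc

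None of the 9 members searched held the composite site, and MXD1 held none of the 3 motifs in its window. The 3 genes with an E-box did not share a direction: MLX fell in each line, MXD4 rose in SNT-8 by the test, and MNT did not pass it. A match describes letters and is not a measurement of binding.

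The libraries held between 9526431 and 10100453 assigned fragments, and between 16996 and 17461 listed genes. Of 8 markers of NK and cytotoxic T cells, 7 or 8 reached 1 FPKM in each group, and FPKM is a level per transcript length and library size. The CD3 chains were present while CD4 and CD8A were near 0, at no more than 0.32 and 0.14 FPKM. In DMSO libraries CD3D stood at 15.13 to 20.11 FPKM in SNK-10, 151.45 to 156.99 in SNT-8 and 132.19 to 142.89 in SNT-16. There CD3G stood at 7.41 to 9.93 FPKM in SNK-10, 43.88 to 45.15 in SNT-8 and 52.99 to 54.2 in SNT-16. GNLY went the other way, at 82.58 to 96.83 FPKM in SNK-10 and no more than 0.66 in SNT-8 and 0.74 in SNT-16. Markers of the lines themselves moved with treatment, and not all in the same direction. In SNT-8, SNK-10 and SNT-16, CD3D had log2 fold changes of -0.58, -0.50 and -0.44, and CD3G -0.60, -0.59 and -0.62. In the same order CD2 had -0.60, -0.52 and -0.43, IL2RB -0.71, -0.28 and -0.53, and PRF1 -0.30, -0.24 and -0.25. Each of these was called lower by edgeR. CD3E was called lower in SNT-8 and SNT-16 (-0.26 and -0.19), and NKG7 in SNT-16 (-0.21). GZMB was called higher in each line (0.25, 0.12 and 0.15) and NCAM1 in SNT-8 (0.22). KLRD1 and GNLY passed in no line. The T cell receptor markers summed to 340.2 to 352.5 FPKM in SNT-8 icaritin libraries and 437.8 to 451.8 FPKM in SNT-8 DMSO libraries, 199.6 to 203.7 FPKM with icaritin and 217.03 to 222.02 FPKM with DMSO in SNK-10, and 343.4 to 365.8 FPKM with icaritin and 432.4 to 440.4 FPKM with DMSO in SNT-16. The part of this in the members' values was not tested. Of 5 B cell markers at most 1 reached 1 FPKM in any group, with a summed level of 0.4 to 1.94 FPKM in icaritin libraries and 0.3 to 2.11 FPKM in DMSO libraries. The 3 myeloid markers summed to 7.83 to 11.9 FPKM in icaritin libraries and 8.62 to 11.96 FPKM in DMSO libraries. The 4 markers of stroma and epithelium summed to 2.05 to 2.6 FPKM in icaritin libraries and 0.83 to 1.99 FPKM in DMSO libraries, and their part in the results was not tested. Mitochondrial rRNA took 1.78% to 5.6% of fragments in icaritin libraries and 0.9% to 1.69% in DMSO libraries, and scaling without these genes left every call of a member's icaritin response as it was.

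MYC, the activator, was the most abundant member per length in DMSO libraries of every line. In SNT-8 it stood at 36.6, 28.7 and 40.7 FPKM in icaritin libraries, against 85.8, 81.6 and 80.6 FPKM in DMSO libraries. In SNK-10 it stood at 32.4, 31.0 and 29.4 FPKM with icaritin, against 77.2, 69.2 and 76.7 FPKM with DMSO. In SNT-16 the values were 34.2, 36.5 and 38.1 FPKM with icaritin, against 81.2, 83.8 and 88.1 FPKM with DMSO. Every icaritin library lay well below every DMSO library, and the lowest of all was the second SNT-8 icaritin library.

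The log2 fold change of MYC was -1.28 in SNT-8 (SE 0.0767, edgeR adjusted p = 1.83e-12), -1.23 in SNK-10 (SE 0.0786, edgeR adjusted p = 5.68e-12) and -1.24 in SNT-16 (SE 0.0765, edgeR adjusted p = 4.18e-12). MYC ranked 256th, 241st and 261st from the most lowered of the 14396 genes in SNT-8, SNK-10 and SNT-16. The paralogs MYCN, MYCL and MLXIPL, which could stand in for MYC or MLXIP, were close to absent: they had counts in 10, 1 and 3 of the 18 libraries and were not tested. In a bulk library, fewer cells that express a gene and less RNA per cell cannot be told apart.

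PVT1, the long noncoding RNA gene that lies beside MYC and whose promoter is known to compete with that of MYC, moved the other way. It had 19.64, 21.99 and 17.26 FPKM in SNT-8 icaritin libraries, against 8.98, 7.52 and 7.21 FPKM in SNT-8 DMSO libraries. The log2 fold change of PVT1 was 1.27 (SE 0.0967) in SNT-8, 0.94 (SE 0.1) in SNK-10 and 1.20 (SE 0.0998) in SNT-16, and it passed the edgeR test in each, with the largest adjusted p at 3.35e-10.

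**Figure D1:**
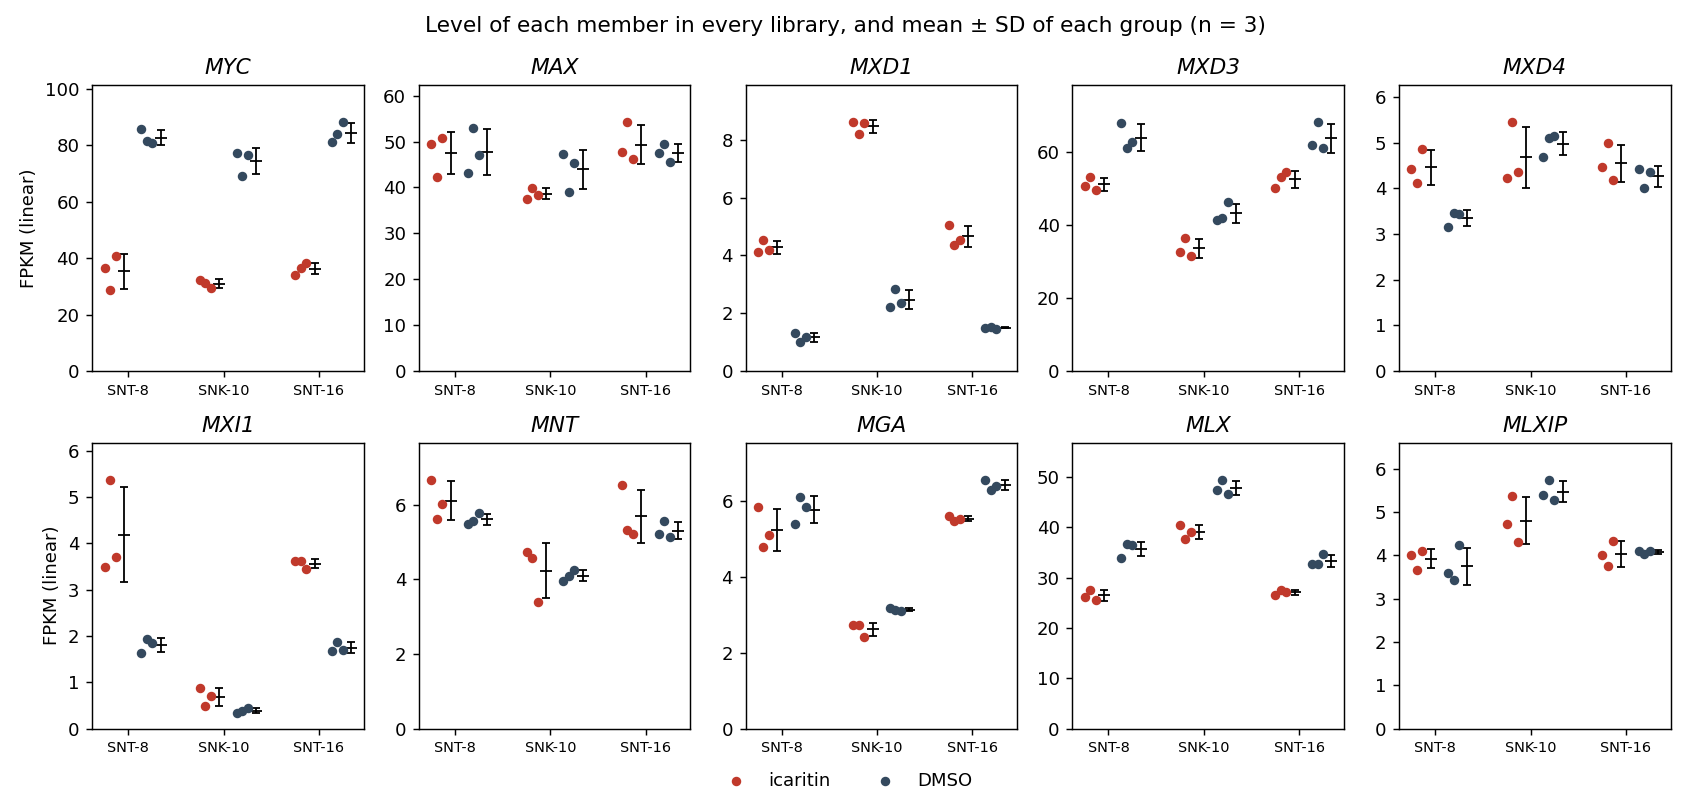
FPKM of each member in every library, on a linear axis from 0, with icaritin in red left of DMSO in blue for each line, and a black bar for the mean ± SD of 3 libraries. The icaritin and DMSO points of MYC, MXD1, MXD3, MXI1 and MLX lie apart in all 3 lines, while those of MAX and MNT overlap.

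MAX, the common partner, changed little. Its level was 42.3 to 50.8 FPKM in icaritin libraries and 43.1 to 52.9 FPKM in DMSO libraries of SNT-8, 37.6 to 39.9 FPKM with icaritin and 39.1 to 47.3 FPKM with DMSO in SNK-10, and 46.1 to 54.2 FPKM with icaritin and 45.6 to 49.5 FPKM with DMSO in SNT-16. The ranges of the 2 treatments overlapped in each line. The log2 fold change was -0.10 in SNT-8, -0.09 in SNK-10 and 0.01 in SNT-16, each with an SE of at most 0.0623, and the smallest edgeR adjusted p was 0.168. The SNT-8 value of MAX was -0.16 and passed when icaritin replicate 3 of that line was left out (edgeR adjusted p = 0.0413). The MAX locus overlaps CHURC1-FNTB, which had fewer counts than MAX and was called higher by edgeR in each line. Its log2 fold changes were 0.30, 0.27 and 0.56 in SNT-8, SNK-10 and SNT-16. FNTB and MAX-AS1, which also overlap MAX, passed in no line. Whether counting used strand is not given, so reads of the overlaps cannot be told apart. After the fall of MYC, MAX was more abundant per length than MYC in icaritin libraries of all 3 lines, with ranges apart; in DMSO libraries MYC was above MAX.

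MXD1, the founding member of the MXD repressors, was the most raised member. It had 4.12, 4.53 and 4.18 FPKM in SNT-8 icaritin libraries, against 1.33, 1.02 and 1.17 FPKM in SNT-8 DMSO libraries. In SNK-10 it had 8.61, 8.22 and 8.6 FPKM with icaritin, against 2.23, 2.83 and 2.36 FPKM with DMSO. SNT-16 gave 5.06, 4.37 and 4.54 FPKM with icaritin, against 1.5, 1.52 and 1.47 FPKM with DMSO. Replicates were tight, and the gap between treatments was several times the spread within a group.

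MXD1 had a log2 fold change of 1.82 in SNT-8 (SE 0.113, edgeR adjusted p = 1.43e-16), 1.81 in SNK-10 (SE 0.0909, edgeR adjusted p = 2.33e-19) and 1.61 in SNT-16 (SE 0.107, edgeR adjusted p = 1.53e-15). It ranked 203rd, 86th and 204th from the most raised gene in SNT-8, SNK-10 and SNT-16.

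MXI1, the repressor also known as MXD2, rose in each line from a low level. It had 3.49, 5.37 and 3.7 FPKM in SNT-8 icaritin libraries, against 1.63, 1.94 and 1.85 FPKM in SNT-8 DMSO libraries. SNT-16 gave 3.62, 3.61 and 3.45 FPKM with icaritin, against 1.67, 1.88 and 1.69 FPKM with DMSO. In SNK-10 it was scarce, at 0.87, 0.48 and 0.7 FPKM with icaritin and 0.34, 0.37 and 0.44 FPKM with DMSO. The groups did not overlap in any line, and the second SNT-8 icaritin library, which was the lowest for MYC, was the highest for MXI1.

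For MXI1 the log2 fold change was 1.18 in SNT-8 (SE 0.155, edgeR adjusted p = 3.13e-08), 0.91 in SNK-10 (SE 0.298, edgeR adjusted p = 0.0101) and 1.01 in SNT-16 (SE 0.16, edgeR adjusted p = 1.57e-06). In SNK-10 it rests on 29, 16 and 23 fragments in icaritin libraries and 11, 12 and 14 fragments in DMSO libraries, and without the first icaritin library it was 0.70 with an edgeR adjusted p of 0.0914. By limma, where the pseudocount shrinks the changes of low genes, it was 0.41 on the log2(FPKM + 0.5) scale and still passed.

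MXD3, the MXD repressor expressed in proliferating cells, was the most abundant repressor and fell. It stood at 49.6 to 53.1 FPKM in SNT-8 icaritin libraries and 61.0 to 67.9 FPKM in SNT-8 DMSO libraries, at 31.6 to 36.4 FPKM with icaritin and 41.3 to 46.1 FPKM with DMSO in SNK-10, and at 49.9 to 54.5 FPKM with icaritin and 61.1 to 68.0 FPKM with DMSO in SNT-16. Every icaritin library was below every DMSO library of its line. Its log2 fold change was -0.37 in SNT-8 (SE 0.0572), -0.34 in SNK-10 (SE 0.0616) and -0.31 in SNT-16 (SE 0.0572), with edgeR adjusted p of at most 2.16e-05.

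The MXD3 locus overlaps PRELID1, a gene for mitochondrial lipid transfer that averaged 259.1 CPM (the count per unit of library size) against 133.4 CPM for MXD3. PRELID1 fell by a like amount, with log2 fold changes of -0.42 in SNT-8, -0.38 in SNK-10 and -0.32 in SNT-16. Whether counting used strand is not given in the sources used here, so reads of the overlap cannot be told apart.

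MXD4, a repressor linked to differentiated cells, was the member with the least even response. In SNT-8 it had 4.42, 4.11 and 4.87 FPKM in icaritin libraries, against 3.15, 3.47 and 3.43 FPKM in DMSO libraries, with no overlap and a log2 fold change of 0.37 (SE 0.109, edgeR adjusted p = 0.00491). In SNK-10 it had 4.22, 5.45 and 4.37 FPKM with icaritin and 4.69, 5.1 and 5.14 FPKM with DMSO, with a log2 fold change of -0.06 (SE 0.102). In SNT-16 the log2 fold change was 0.07 (SE 0.105), from 4.47, 4.99 and 4.18 FPKM with icaritin and 4.43, 4.01 and 4.35 FPKM with DMSO. The treatments overlapped in SNK-10 and SNT-16, and neither passed the edgeR test (adjusted p = 0.695 and 0.628).

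MNT, a larger repressor that most cells express, did not pass the test in any line. Its range was 5.62 to 6.66 FPKM in icaritin libraries and 5.49 to 5.77 FPKM in DMSO libraries of SNT-8, 3.38 to 4.72 FPKM with icaritin and 3.96 to 4.24 FPKM with DMSO in SNK-10, and 5.22 to 6.51 FPKM with icaritin and 5.13 to 5.56 FPKM with DMSO in SNT-16. The log2 fold change was 0.07 in each line, with an SE of 0.0907 in SNT-8, 0.101 in SNK-10 and 0.0927 in SNT-16.

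MGA, the giant MAX partner of a Polycomb-related repressive complex, fell slightly. It had 5.84, 4.77 and 5.1 FPKM in SNT-8 icaritin libraries, against 5.38, 6.09 and 5.83 FPKM in SNT-8 DMSO libraries. SNK-10 gave 2.72, 2.72 and 2.42 FPKM with icaritin, against 3.18, 3.12 and 3.11 FPKM with DMSO, and SNT-16 gave 5.59, 5.46 and 5.53 FPKM with icaritin, against 6.55, 6.29 and 6.38 FPKM with DMSO. The treatments were apart in SNK-10 and SNT-16 and overlapped in SNT-8.

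The log2 fold change of MGA was -0.19 in SNT-8 (SE 0.0635, edgeR adjusted p = 0.0133), -0.23 in SNK-10 (SE 0.0764, edgeR adjusted p = 0.013) and -0.23 in SNT-16 (SE 0.0626, edgeR adjusted p = 0.00258). In SNT-8 its call depended on single libraries: leaving out icaritin replicate 2 gave an edgeR adjusted p of 0.102, icaritin replicate 3 gave 0.0509 and DMSO replicate 2 gave 0.0953. The SNK-10 call was lost without SNK-10 icaritin replicate 3 (edgeR adjusted p = 0.0702), and the SNT-16 call was lost by limma on log2(FPKM + 0.1) (adjusted p = 0.0538).

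MLX, the partner of MLXIP, fell in each line. It had 26.2, 27.6 and 25.6 FPKM in SNT-8 icaritin libraries, against 34.0, 36.7 and 36.4 FPKM in SNT-8 DMSO libraries. In SNK-10 it had 40.5, 37.7 and 39.1 FPKM with icaritin, against 47.4, 49.5 and 46.7 FPKM with DMSO, and in SNT-16 it had 26.5, 27.6 and 27.2 FPKM with icaritin, against 32.7, 32.7 and 34.7 FPKM with DMSO. No icaritin library reached a DMSO library of its line.

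MLX had a log2 fold change of -0.48 in SNT-8 (SE 0.0571, edgeR adjusted p = 3.96e-09), -0.26 in SNK-10 (SE 0.0536, edgeR adjusted p = 8.47e-05) and -0.34 in SNT-16 (SE 0.0575, edgeR adjusted p = 6.94e-06). PSMC3IP, a recombination factor whose gene overlaps MLX, moved the other way, with a log2 fold change of 0.32, 0.25 and 0.39 in SNT-8, SNK-10 and SNT-16, at 62.2 CPM against 85.0 CPM for MLX.

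MLXIP, the glucose-responsive partner in that arm, ranged over 3.67 to 4.1 FPKM in SNT-8 icaritin libraries and 3.42 to 4.23 FPKM in SNT-8 DMSO libraries. It ranged over 4.3 to 5.37 FPKM with icaritin and 5.28 to 5.74 FPKM with DMSO in SNK-10, and over 3.75 to 4.34 FPKM with icaritin and 4.03 to 4.11 FPKM with DMSO in SNT-16. The treatments overlapped in each line. Its log2 fold change was 0.02 in SNT-8 (SE 0.0822), -0.16 in SNK-10 (SE 0.0765) and -0.04 in SNT-16 (SE 0.0812), and the smallest edgeR adjusted p was 0.0884. Without SNK-10 icaritin replicate 2 the SNK-10 value of MLXIP was -0.23 and passed (edgeR adjusted p = 0.0237).

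**Figure D2:**
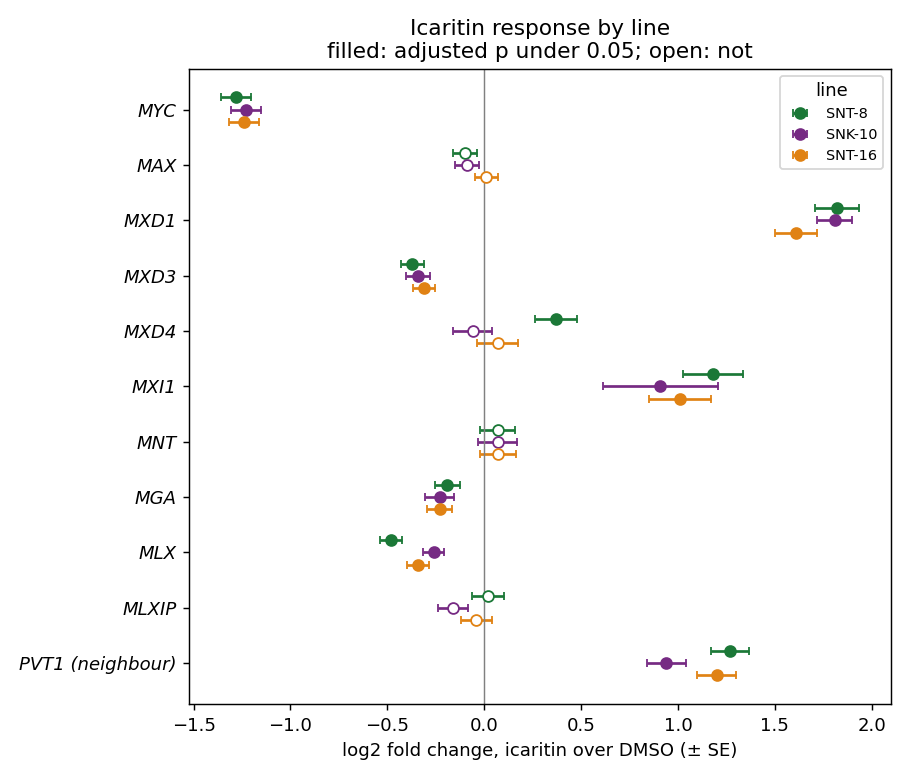
Log2 fold change of icaritin over DMSO with its SE for the 10 members and PVT1 in SNT-8, SNK-10 and SNT-16, with filled points where the edgeR adjusted p was under 0.05. MYC lies between -1.28 and -1.23, MXD1 between 1.61 and 1.82, and MAX and MNT near 0 in each line.

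By count, 7 of the 10 members passed the test in SNT-8, where 49.1% of all tested genes did: 3 were higher and 4 lower, beside 24% and 25% of tested genes. In SNK-10 and in SNT-16 the count was 6 of 10, where 48.4% and 42% of tested genes passed. In both, 2 members were higher and 4 lower, beside 24.4% and 24% of tested genes in SNK-10 and 21.2% and 20.8% in SNT-16. MXD1 and MXI1 were called higher in each of the 3 lines, as were 13% of tested genes, and MYC, MXD3, MGA and MLX were called lower in each, as were 14.3% of tested genes. On the average of the 3 lines 6 members passed, beside 61.7% of tested genes. The shares passing in each line and on average are near the background, so they say nothing about the network as a set. The median log2 fold change of the members was -0.04 in SNT-8, -0.12 in SNK-10 and -0.01 in SNT-16, beside 0.02, 0.01 and 0.02 over all tested genes. Size set MYC, MXD1 and MXI1 apart from the other members. The limit taken was an adjusted p under 0.05 together with a log2 fold change of at least 1 in size. It was met by 5.16%, 4.92% and 3.61% of tested genes in SNT-8, SNK-10 and SNT-16. These 3 members met it in each line, except MXI1 in SNK-10, at 0.91.

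The balance of repressor to activator RNA was described as the summed FPKM of MXD1, MXD3, MXD4, MXI1 and MNT over the FPKM of MYC. In SNT-8 this ratio was 1.90, 2.54 and 1.68 in icaritin libraries, against 0.93, 0.89 and 0.93 in DMSO libraries. In SNK-10 it was 1.58, 1.78 and 1.66 with icaritin, against 0.68, 0.79 and 0.76 with DMSO. In SNT-16 it was 2.04, 1.95 and 1.89 with icaritin, against 0.92, 0.97 and 0.84 with DMSO. This sum exceeded MYC RNA in all 9 icaritin libraries and in 0 of 9 DMSO libraries, and that crossing depends on which members are summed, as 2 other sums chosen after seeing the data show. With MGA added, 9 of 9 icaritin libraries and 2 of 9 DMSO libraries were above MYC. Without MXD3, whose reads cannot be told apart from those of PRELID1 where the genes overlap, none was above it, at 0.456 to 0.685 with icaritin and 0.135 to 0.179 with DMSO.

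The log2 ratio averaged 1.01 ± 0.31 in icaritin libraries and -0.13 ± 0.031 in DMSO libraries of SNT-8 (SD, n = 3 each). It averaged 0.74 ± 0.086 with icaritin and -0.43 ± 0.11 with DMSO in SNK-10, and 0.97 ± 0.055 with icaritin and -0.14 ± 0.11 with DMSO in SNT-16. The difference was 1.13, 1.17 and 1.11 on the log2 scale in SNT-8, SNK-10 and SNT-16. The repressor sum itself was lower with icaritin in both SNT lines, with no overlap. It was 68.4 to 72.7 FPKM in icaritin libraries and 73.0 to 79.4 FPKM in DMSO libraries of SNT-8, and 69.6 to 71.9 FPKM with icaritin and 73.7 to 81.0 FPKM with DMSO in SNT-16. In SNK-10 it overlapped, at 48.6 to 55.1 FPKM with icaritin and 52.6 to 58.3 FPKM with DMSO. The difference of the ratio in each line was below the size of MYC's own log2 fold change. MXD3 made up 63.9% to 75.8% of the sum with icaritin and 77.2% to 85.4% with DMSO. MXD1 made up 5.9% to 17.7% of the sum with icaritin and 1.4% to 5.2% with DMSO.

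**Figure D3:**
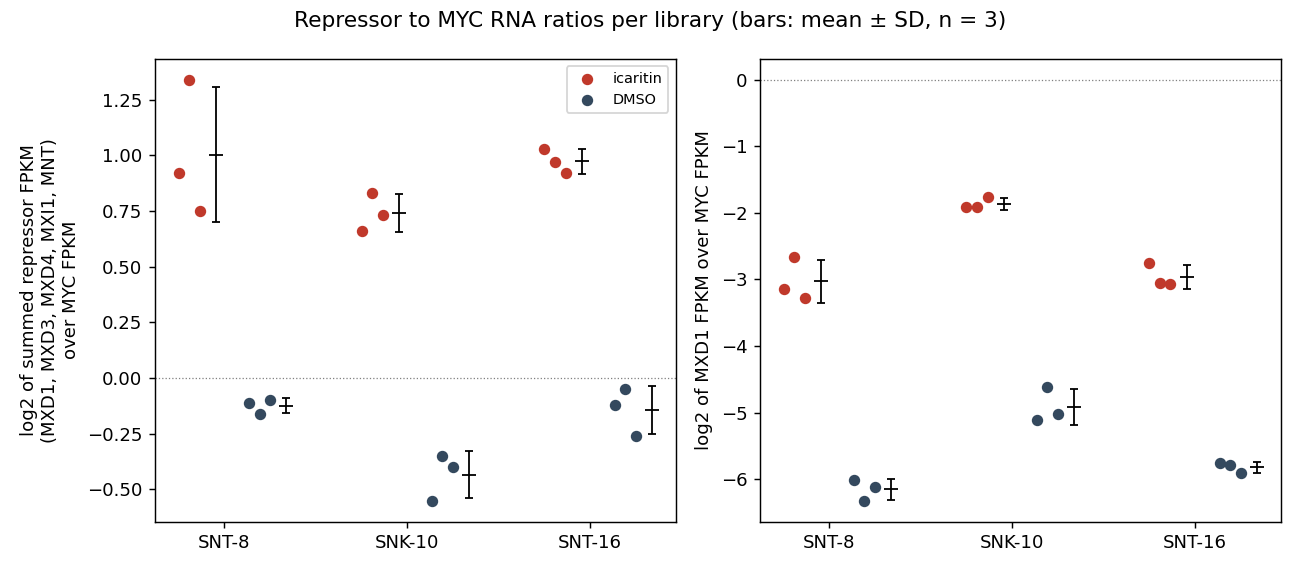
Log2 of the summed FPKM of 5 repressors over MYC FPKM (left) and log2 of MXD1 FPKM over MYC FPKM (right) in every library, with icaritin in red left of DMSO in blue, and black bars for mean ± SD of 3 libraries. The summed ratio is above 0 in all icaritin libraries and below 0 in all DMSO libraries, and the MXD1 ratio lies between -3.28 and -1.77 with icaritin and between -6.32 and -4.61 with DMSO.

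Whether the response differed between lines was tested directly, and the contrasts share the same DMSO and icaritin libraries. By edgeR 0 of 10 members passed the test over the 3 lines, where 14.3% of tested genes did, while MXD4 and MLX had an unadjusted p under 0.05 (0.0238 and 0.0276), and DESeq2 and both limma fits called 0. The response of SNK-10 minus the mean of the SNT lines also gave 0 of 10, where 14.1% of tested genes passed, with the same 2 members under an unadjusted p of 0.05, 0 calls by DESeq2 and 1 by limma with a pseudocount of 0.5. SNT-8 minus SNT-16 gave 0 of 10 by edgeR, DESeq2 and limma, with 0 members at an unadjusted p under 0.05 and 0.438% of tested genes passing. For MYC the SNK-10 response exceeded the mean of the SNT lines by 0.02 on the log2 scale (SE 0.0958), and for MXD1 by 0.10 (SE 0.126).

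The lines differed in the levels of the members before any response. In DMSO libraries 9 of the 10 members differed between SNK-10 and the mean of SNT-8 and SNT-16, where 61.4% of tested genes did. MXD1 was higher in SNK-10, at 2.23, 2.83 and 2.36 FPKM, against 1.02 to 1.33 FPKM in SNT-8 and 1.47 to 1.52 FPKM in SNT-16, with a log2 difference of 0.93 (SE 0.103, edgeR adjusted p = 3.02e-10). MXI1 was lower in SNK-10, at 0.34, 0.37 and 0.44 FPKM, against 1.63 to 1.94 FPKM in SNT-8 and 1.67 to 1.88 FPKM in SNT-16, with a log2 difference of -2.20 (SE 0.222, edgeR adjusted p = 2.66e-11). On the log2(FPKM + 0.5) scale of limma that MXI1 difference was -1.37, and it passed. These repressors rose together under icaritin yet stood in opposite order between the lines, and MXI1 in SNK-10 icaritin libraries stayed below its level in DMSO libraries of both SNT lines.

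MGA was lower in SNK-10 by a log2 difference of -0.93 (SE 0.0605), MXD3 by -0.53 (SE 0.0513) and MNT by -0.38 (SE 0.0851). MLX was higher in SNK-10 by 0.50 (SE 0.0462), MLXIP by 0.52 (SE 0.067) and MXD4 by 0.43 (SE 0.0904), so both partners of the MLX arm stood higher there. All 6 of these had an edgeR adjusted p of at most 0.000194. MAX differed by -0.12 (SE 0.0529, edgeR adjusted p = 0.0451), a call lost without SNK-10 DMSO replicate 2 (0.215) and without 8 other single libraries, of both SNK-10 and SNT lines. The MAX call was also lost by DESeq2 (adjusted p = 0.116), by limma (0.183 and 0.182), and with other scaling or no filter, and DESeq2 and both limma fits called 8 members in place of 9. MYC differed by -0.13 (SE 0.0625, edgeR adjusted p = 0.0682), and it passed without SNT-8 icaritin replicate 2 (0.00485) or replicate 3 (0.0183). By edgeR the MYC difference also passed with only the groups compared (adjusted p = 0.00358), with no filter (0.0113) and with the replicate number as a block (0.0373). Between SNT-8 and SNT-16 in DMSO libraries edgeR called 0 of 10 members, where 13.2% of tested genes passed; MXD4, MXD1 and MLX had an unadjusted p under 0.05, DESeq2 called 0, and limma called 1, MXD4.

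**Figure D4:**
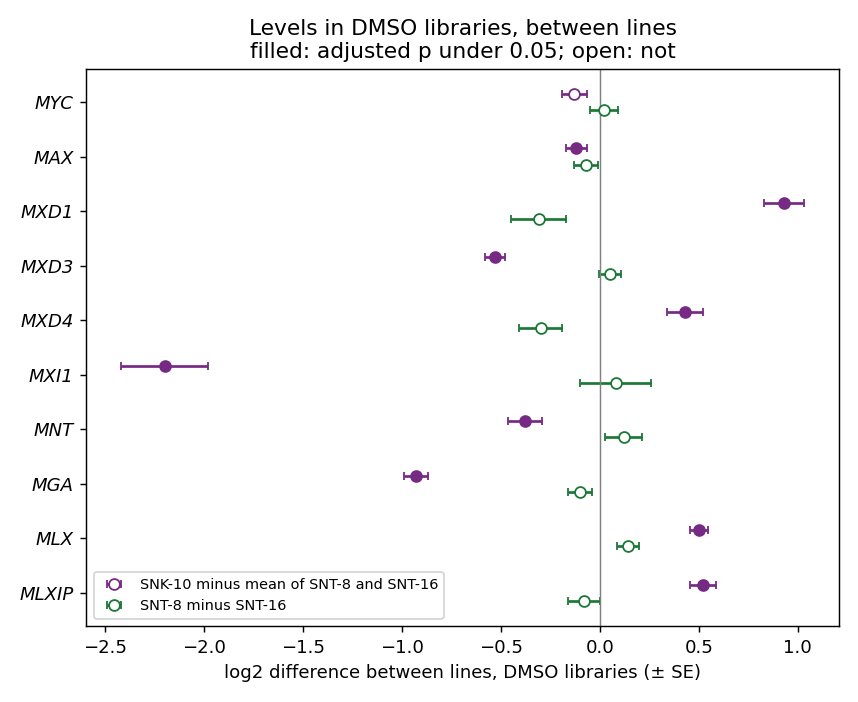
Log2 difference in level between lines in DMSO libraries with its SE, for SNK-10 minus the mean of SNT-8 and SNT-16 (purple) and for SNT-8 minus SNT-16 (green), with filled points where the edgeR adjusted p was under 0.05. MXI1 at -2.20 and MXD1 at 0.93 mark the extremes of the SNK-10 comparison, while the SNT-8 points are all open.

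By order of level, MYC, MXD3, MAX and MLX were the 4 most abundant members per length in every group. In DMSO libraries of both SNT lines the order was MYC, MXD3, MAX and MLX, each apart from the next in range. In icaritin libraries of both SNT lines MXD3 came first and MAX next, with overlapping ranges, then MYC and MLX. In SNK-10 icaritin libraries MLX and MAX led and overlapped, followed by MXD3 and MYC, which also overlapped. The deposited transcript length of MAX ranged from 1679 to 1998 bases over the libraries, while MYC, MXD4, MNT and MLXIP had 1 length throughout, at 2379, 3773, 4865 and 8439 bases.

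The genes around the network were read from lists of its cofactors, regulators and targets. These lists were chosen with earlier results of these data known, so their counts describe the listed genes. They are not a test of MYC activity. Of 38 known MYC targets, 33 fell, 2 rose and 3 did not pass in SNT-8, with the same counts in SNK-10, and 31 fell, 2 rose and 5 did not pass in SNT-16. Over all tested genes 25%, 24% and 20.8% fell in SNT-8, SNK-10 and SNT-16, and 24%, 24.4% and 21.2% rose. The median log2 fold change of the list was -0.62 in SNT-8, -0.59 in SNK-10 and -0.57 in SNT-16, beside 0.02, 0.01 and 0.02 over all tested genes. The ribosome assembly factors NOP16, NOP56 and MYBBP1A averaged log2 fold changes of -1.49, -1.01 and -1.03 over the 3 lines, and GNL3 had -1.04 in SNT-8, -1.09 in SNK-10 and -0.87 in SNT-16. SHMT2, a serine and folate enzyme on the same list, rose by 0.75.

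Of 15 cofactors of MYC, 8 fell and 2 rose in SNT-8, 7 fell and 3 rose in SNK-10, and 8 fell and 2 rose in SNT-16. Their median log2 fold change was -0.26, -0.13 and -0.18 in SNT-8, SNK-10 and SNT-16, and the shares of all tested genes given for the targets (25%, 24% and 20.8% lower, 24%, 24.4% and 21.2% higher) are the background for this list and the lists that follow. PAF1, an elongation factor, averaged -0.54, BPTF, a nucleosome remodelling subunit, -0.38, and RUVBL2, a chromatin helicase, -0.36. ZBTB17 went the other way, with an average of 0.37, and was called higher by edgeR in each line. The SIN3 corepressor that MXD proteins recruit was mixed: of 17 subunits, 7 fell and 3 rose in SNT-8, 4 fell and 4 rose in SNK-10, and 3 fell and 3 rose in SNT-16, with medians of -0.08, -0.05 and -0.01. Its deacetylase HDAC2 averaged -0.48, the histone binder RBBP7 -0.18 and the scaffold SIN3A -0.22, and ARID4A averaged 0.53.

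Among 14 factors that set the turnover of MYC protein, 5 rose and 5 fell in SNT-8, 3 rose and 7 fell in SNK-10, and 5 rose and 4 fell in SNT-16, with medians of -0.11, -0.17 and -0.02. FBXW7, the ubiquitin ligase receptor that marks MYC for degradation, rose by an average of 0.68 and the SUMO protease SENP1 by 0.37, while the deubiquitinases USP7 and USP36 averaged -0.32 and -0.33. AURKA, a mitotic kinase known to stabilise MYC family proteins, averaged -1.38. The other deubiquitinases of the list were split, with averages of 0.40 for USP37, 0.25 for USP28 and -0.17 for USP13. Of 12 regulators of MYC transcription, 5 rose and 6 fell in SNT-8, 6 rose and 4 fell in SNK-10, and 5 rose and 6 fell in SNT-16, with medians of -0.11, 0.19 and -0.11. HNRNPK and PUF60, which bind the MYC promoter, averaged -0.72 and -0.48, and the transcription factor MYB averaged 0.83.

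TXNIP, the arrestin that is the best known target of MLXIP with MLX, rose while MLX fell. It had 9.48, 7.36 and 11.5 FPKM in SNT-8 icaritin libraries, against 2.72, 2.6 and 2.64 FPKM in SNT-8 DMSO libraries, and its log2 fold change was 1.78, 1.51 and 1.17 in SNT-8, SNK-10 and SNT-16. Of the other tested genes of that list, PFKFB3, HK2 and KLF10 averaged -0.19, -0.33 and -0.13, and all 3 passed as lower on average. By line, PFKFB3 passed in SNK-10 and SNT-16 (-0.23 and -0.21), HK2 passed in SNK-10 (-0.89), and none of the 3 passed in SNT-8. The response of TXNIP passed the test over the 3 lines narrowly (edgeR adjusted p = 0.0487). Neither SNK-10 against the SNT lines (edgeR adjusted p = 0.911) nor SNT-8 against SNT-16 (edgeR adjusted p = 0.109) passed. TXNIP was the only gene outside the members whose promoter matches were listed, and the motifs were chosen with the expression results known. The FOXO core was present in 3.42% of RefSeq promoters, and a part of FOXO factors in the rise of TXNIP or MXI1 was not tested. The promoter of TXNIP (chr1:145996687-145996713, minus strand) held the FOXO core 124 bases before its start, shown with the motif in capitals.
TXNIP: cgggctcctgGTAAACAaggaccgggc

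**Figure D5:**
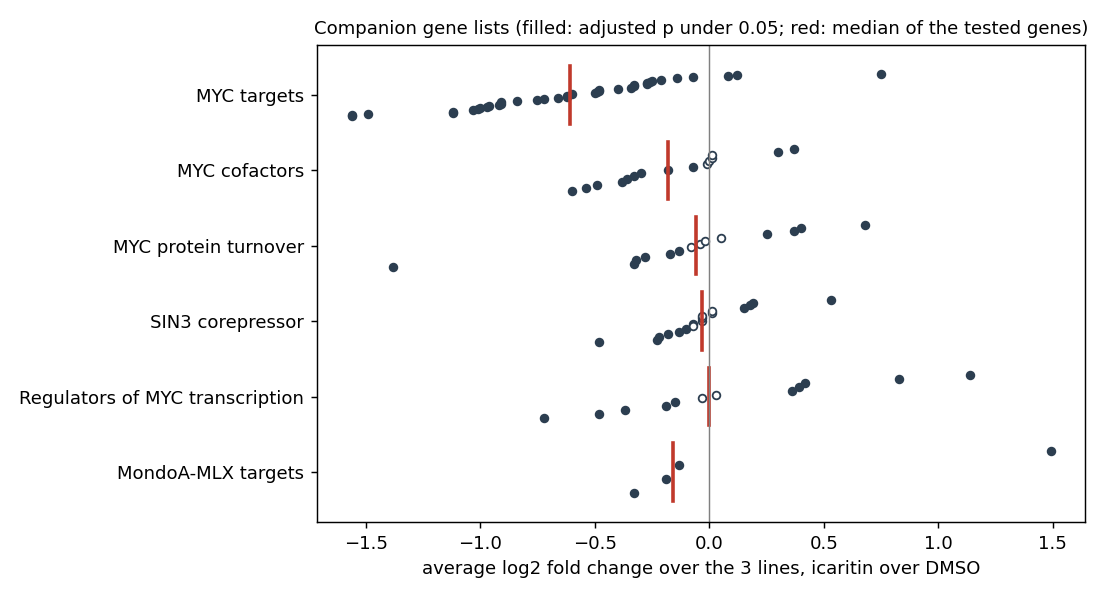
Average log2 fold change of icaritin over DMSO over the 3 lines for each tested gene of 6 lists around the network, with filled points where the edgeR adjusted p was under 0.05 and a red line at the median of the list. The MYC targets centre on -0.61, and SHMT2 at 0.75 stands apart on their right.

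The genes with the most similar pattern to each member were found by Pearson correlation of log2 CPM over the 18 libraries among 9332 genes, as a description, since the libraries fall into 6 groups by line and treatment. The 5 most like MYC were SFPQ, a splicing factor (r = 0.992), BRD2, an acetyl-lysine reader (0.988), NOP16 (0.986), KLF16 (0.985) and ARMC6 (0.985). BRD2 moved less than MYC, with an average log2 fold change of -0.36 beside -1.25. MXD1 was most like HDAC5, a class II deacetylase (0.986), which rose by an average of 1.52. MXI1 was most like GIT1 (0.989), MGA most like MYH6 (0.989), MLX most like INTS6 (0.987) and MXD3 most like TMEM98 (0.974). MLXIP, MNT, MAX and MXD4 had weaker best matches, POLG at 0.945, MYO9B at 0.895, CYB561A3 at 0.881 and CEP164 at 0.855.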

How the data were processed

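RNA-seq of 18 libraries (3 lines, icaritin or DMSO for 12 h, 3 each) was analysed; line, treatment and replicate came from the labels. Per the labels, RNA was extracted with Trizol and libraries were made with an MGIEasy kit. Bowtie2 and HISAT were used per the submitters' processing notes; no source used here gives their versions, the genome build or the quantifier. Per the file headers, the deposited tables hold expected counts (estimated fragments per gene), FPKM and a transcript length. A gene missing from a table was taken as 0. Of 21662 IDs, 21559 were named through the NCBI Gene ID, 24 through a transcript and 79 had no match.

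After rounding, the expected counts were fitted with edgeR 4.0.16 in R 4.3.3 (filterByExpr with minimum count 10 and minimum total 15, TMM, robust quasi-likelihood F test, 6 group means, 12 residual degrees of freedom). P-values were two-sided and adjusted by Benjamini and Hochberg over 14396 genes, with a threshold of 0.05. The common biological coefficient of variation was 4.43%, and totals of 9526431 to 10100453 limit the precision of weakly expressed genes. The SE is the absolute log2 fold change over the square root of F. The fit was tested on simulated data in which only well-expressed genes were changed, after small changes in weaker genes had been recovered less completely. The simulation gave every gene the same spread. MXD1, MXD4 and MXI1 had fewer fragments in DMSO libraries than the genes changed there, so the simulation does not cover them.

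The members, lists and motifs were chosen with earlier results of these data known. All members are named; of each list, up to 4 genes with the smallest p on the average of the lines are named, with any gene needed to describe a mixed list, and for likeness the 5 genes closest to MYC and 1 for each other member, among genes of at least 10 CPM. A gene that this rule would name is not reported here. Replicate libraries differed by more than sampling noise (chi-square per gene 1.37 to 8.19). Libraries of the same number did not deviate together (r from -0.058 to 0.055), so numbers were not used as pairs. Alternatives were RLE scaling, scaling without mitochondrial rRNA genes, no filter, DESeq2 1.42.0, limma 3.58.1 on log2(FPKM + 0.5) and log2(FPKM + 0.1), only the groups compared, a replicate block, and leaving out each library. For the ratio, sums with MGA and without MXD3 were added after seeing the data.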

Additional observations from a re-analysis of the deposited data

How the results depend on the processing

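For the counts of members and the summed repressor to MYC ratio, 251 alternative values stayed within 1.5 times the count or 1 SD of the ratio, and 10 moved. The ratio was also computed, as a choice made after seeing the data, with MGA added (1.13, 1.16 and 1.10 in SNT-8, SNK-10 and SNT-16) and without MXD3, where it moved to 1.92, 1.86 and 1.74. The count of members whose response differed between the 3 lines was 1 in place of 0 without SNT-8 icaritin replicate 2 (MLX) and without SNK-10 icaritin replicate 2 (MXD4). The response of SNK-10 against the SNT lines gave 1 (MXI1, log2 difference -0.52) by limma on log2(FPKM + 0.5). The DMSO comparison of SNT-8 with SNT-16 gave 2 (MXD4 and MLX) with only those groups in the fit, and 1 (MXD4) by limma with either pseudocount and without SNT-8 icaritin replicate 2. Over the libraries left out in turn, the count ranged from 6 to 7 in SNT-8, from 5 to 7 in SNK-10, stayed at 6 in SNT-16, ranged from 6 to 7 on average, from 8 to 10 for the SNK-10 difference in DMSO, from 0 to 1 for SNT-8 against SNT-16 in DMSO and for the 3 lines' responses, and stayed at 0 for the other 2 response differences. The ratio difference ranged from 0.96 to 1.26 in SNT-8, 1.11 to 1.21 in SNK-10 and 1.06 to 1.16 in SNT-16. With the replicate number as a block, the members called were 7 in SNT-8, 6 in SNK-10 and 6 in SNT-16, and 9 for the SNK-10 difference in DMSO, where MAX was lost and MYC was gained. MGA in SNT-8 was also lost with only the groups compared (adjusted p = 0.0526, edgeR) and by limma (0.169 and 0.181). Among the values of single members 17 gained and 25 lost a call, and none turned direction while called. Over all genes, the count of SNT-8 minus SNT-16 response calls moved by more than 1.5 times, between 8 and 279 against 63. By limma the direction of calls shifted for SNK-10 minus SNT responses (841 higher and 1536 lower, against 1184 and 849) and for SNT-8 minus SNT-16 in DMSO (611 higher and 1082 lower, against 1056 and 848). The cause was not tested in any of these. For the average and the comparisons of all 3 lines, restricting the fit to the groups compared is the fit itself and was not run apart. Depth limits MXI1 in SNK-10 most, with 11 to 29 fragments per library.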
